A study of Mus musculus with 10 samples.

Results

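Potassium channel subunits were examined in the hippocampus of male C57BL/6J mice, aged 2 months and wild type, in a study that ablated meningeal lymphatics by a photochemical procedure and used vehicle-injected mice as controls. Members were all protein-coding genes whose symbol is Kcn followed by lower-case letters and a number, without Kcnj10, Kcnj13 and Kcne2, which gave 89 of the 28871 genes of the table, and 78 of them passed edgeR's filter on low counts. The 5 Visudyne samples came from mice that received Visudyne, an injectable form of the photosensitizer verteporfin, into the cisterna magna and red light of 689 nm over the skull. The 5 vehicle samples came from mice that received vehicle and the same light. In both groups the procedure was done again after 2 weeks and the tissue was taken 2 weeks after the last one. No group received Visudyne without light, and nothing in the labels ties a sample to its own animal, so that p-values measure the spread between these samples, which may be technical.

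Potassium channels let potassium leave the cell down its gradient and so set the resting potential, end action potentials and limit repetitive firing. Voltage-gated channels open on depolarization, inward rectifiers hold the resting potential and carry the inhibitory current started by G protein-coupled receptors, tandem-pore channels (K2P, labelled two-pore in the plots) carry leak currents, and calcium-activated channels answer calcium entry with hyperpolarization. In hippocampal pyramidal neurons a transient dendritic current built from Kcnd2 and the M-current, to which Kcnq3 and Kcnq5 contribute, are known brakes on excitability.

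Of the 78 tested members, 0 were called higher and 0 lower in the Visudyne group (edgeR quasi-likelihood test, threshold of 0.05 on the adjusted p), where 0.021% of the 19093 tested genes were higher and 0 were lower. At an unadjusted p under 0.05 there was 1 member, Kcnk5, or 1.28%, where 1.7% of all tested genes passed, 1.14% of all with a higher and 0.56% with a lower value in the Visudyne group. DESeq2 called 1 member, Kcnk5, higher, where it called 0.0943% of all genes higher, and limma voom called 0, also when samples were weighted by quality. The 2 groups did not overlap, with Visudyne higher, in 1 member, again Kcnk5, where 0.319% of all genes did so, and with Visudyne lower in 0 members, where 0.115% did so. The median log2 fold change, Visudyne minus vehicle, was -0.001 over the 78 members, with 39 positive and 39 negative, and 0.002 over all tested genes, of which 51.1% were positive.

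The libraries held 51165271 to 68895223 estimated counts each. Neuronal markers of the labelled tissue were present in each sample: 8 neuron markers summed to 5546 to 6334 CPM (counts scaled to the TMM-normalized library size) and 8 dentate granule cell markers to 429 to 538 CPM. Vehicle 7 stood apart with 219 CPM summed over 8 choroid plexus markers, where the other 9 samples had 26.2 to 52.8 CPM. Visudyne 12 stood apart with 140.2 CPM summed over 8 thalamus and habenula markers, where the other 9 had 96.5 to 114.6 CPM. The part of these markers in the channel values was not tested. The count of members called was 0 when vehicle 7, or any other sample, was left out. In whole tissue, fewer cells of a type and less RNA per cell cannot be told apart.

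The sequences before 2 members are shown because Kcnk5 is the only member that separated the groups and Kcnd2 is an abundant voltage-gated pore subunit whose values lay lower in 3 of 5 Visudyne samples. Both are the 250 bases before the RefSeq start (GRCm38.p6), written 5′ to 3′ on the gene's strand in lower case, with each GGGCGG or its reverse complement CCGCCC in capitals. The Kcnk5 stretch lies at chr14:20181783-20182032 on the minus strand, holds 3 such matches and 19 CG pairs, and has a GC content of 62.8%. The Kcnd2 stretch lies at chr6:21215096-21215345 on the plus strand, holds 1 match and 22 CG pairs, and has a GC content of 68.8%.
Kcnk5: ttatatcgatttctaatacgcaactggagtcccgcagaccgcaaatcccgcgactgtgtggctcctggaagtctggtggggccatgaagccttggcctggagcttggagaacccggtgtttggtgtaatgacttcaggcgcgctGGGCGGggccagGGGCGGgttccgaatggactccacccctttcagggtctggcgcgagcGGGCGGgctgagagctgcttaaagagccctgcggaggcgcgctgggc
Kcnd2: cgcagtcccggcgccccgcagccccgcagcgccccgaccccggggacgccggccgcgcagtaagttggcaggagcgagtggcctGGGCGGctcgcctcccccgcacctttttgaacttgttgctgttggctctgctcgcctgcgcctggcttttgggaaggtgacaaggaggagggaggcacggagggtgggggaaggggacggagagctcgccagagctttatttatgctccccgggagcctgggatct

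RefSeq stretches of this kind were matched by symbol for 64 of the 89 members. For each member the stretch nearest the GENCODE gene start was kept, while the 32841 stretches compared were taken without such a choice. Some kept stretches lay far from that start, as for Kcnip4 (239248 bases) and Kcnj12 (43240 bases). GGGCGG, on either strand, was present in 29 of the 64 (45.3%) and in 32.7% of all 32841 such stretches. TATAAA, on either strand, was present in 1 of them (1.56%), before Kcnj9, and in 12.4% of all. The median number of CG pairs was 8 in the members' stretches and 6 in all, and the median GC content was 59.4% and 52.4%. A match is a description of letters, and base composition is shared by all of these counts.

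Levels between genes are compared as CPM per kb of annotated exon. Voltage-gated pore subunits made up 38.2% of the summed level of all members, voltage-gated auxiliary subunits 27.0%, inward rectifiers 15.3%, silent voltage-gated subunits 7.43%, K2P channels 7.03%, and the calcium-activated channels with the related Slo family 5.06%. Kcnab2, a cytoplasmic beta subunit of Kv1 channels, had the highest level, 85.98 CPM per kb, and its lowest sample exceeded the highest sample of every gene below it in the order. The next 5 were Kcnj4 (34.95), Kcnd2 (33.41), Kcnj3 (31.64), Kcnk1 (30.29) and Kcnip2 (29.08 CPM per kb), and each overlapped its neighbour in that order in its range over the 10 samples. The lowest Kcnip2 sample (26.2 CPM per kb) lay above the highest sample of the next gene, Kcna1 (23.8). With the length of the longest transcript in place of all exons, 9 of the 10 highest members were the same, but their order was not. Kcnip2 (32.46) then lay above Kcnj3 (31.64) and Kcnk1 (30.29), and Kcnab1 went from 12.51 to 24.53. Of the 37 named members, 19 had a level that moved by more than 1 SD with that length.

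**Figure D1:**
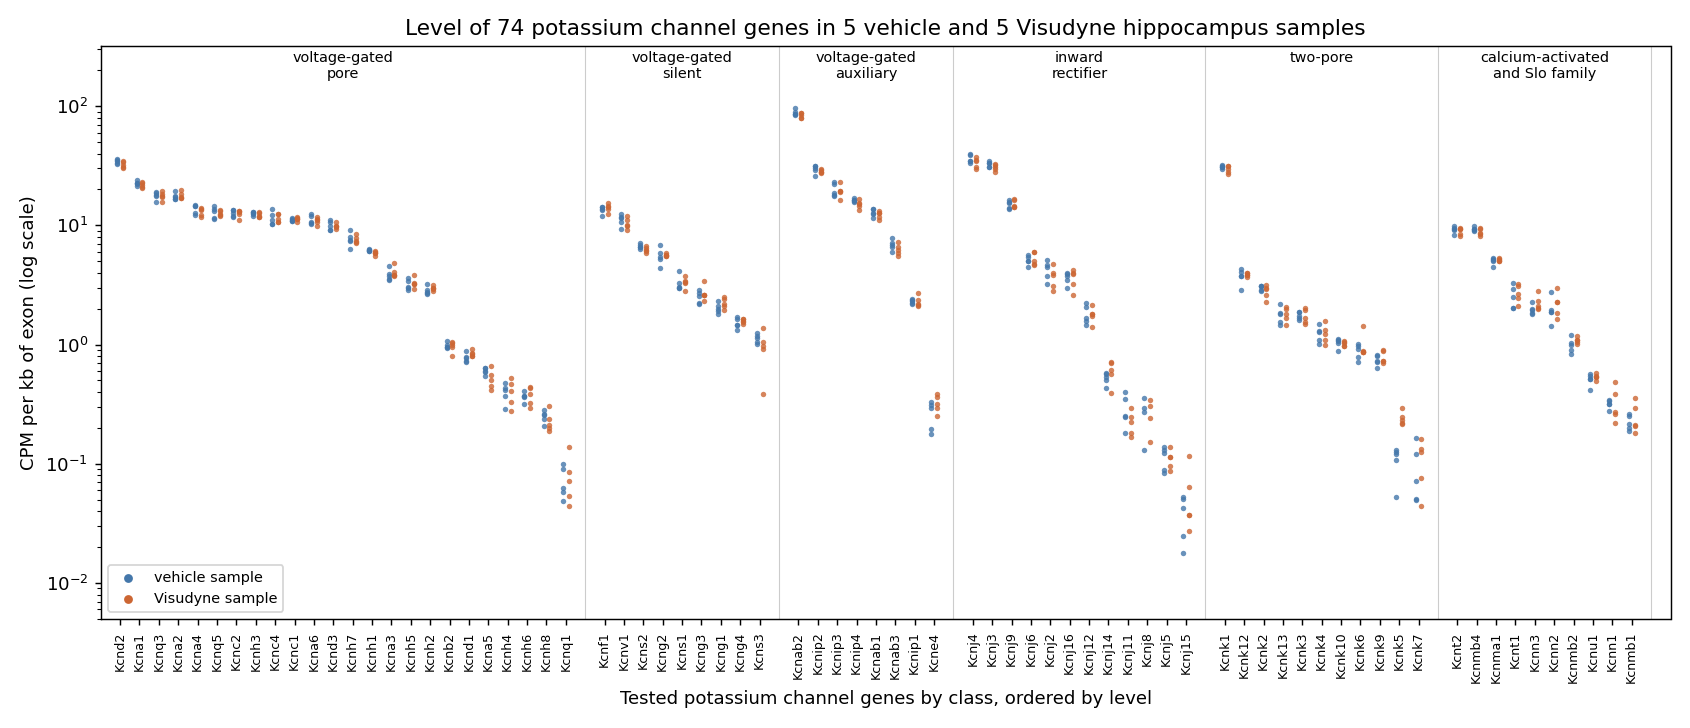
Level of 74 of the 78 tested members in CPM per kb of exon on a log axis, by class, with vehicle samples in blue and Visudyne samples in orange; the samples of Kcnj8 with 0 counts (vehicle 10 and Visudyne 9) cannot be drawn. Kcnab2 is highest at about 85.98 CPM per kb, and Kcnk5, at 0.175 CPM per kb, is the member whose 2 groups do not overlap.

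The voltage-gated pore subunits comprised 30 genes, of which 28 were tested, 12 with positive and 16 with negative fold changes and a median of -0.01. Their 95% intervals lay within 1.25-fold of no difference in 23 of the 28. The summed level of the class was 244.6 ± 4.88 CPM per kb in vehicle and 241.9 ± 7.66 in Visudyne samples (SD, n = 5 each), with overlapping ranges.

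Kcnd2 encodes the Kv4 subunit of the dendritic transient current. It measured 172.1, 178.4, 180.9, 186.3 and 168.2 CPM in vehicle 1, 4, 7, 10 and 13, and 174.9, 159.2, 180.2, 165.8 and 155.4 CPM in Visudyne 3, 6, 9, 12 and 15. Visudyne 6, 12 and 15 lay below all vehicle samples, and the other two lay among them. The difference was a fold of 0.943 with a 95% interval of 0.874 to 1.02 (log2 -0.08, SE 0.05, edgeR adjusted p = 0.9999). Its relative Kcnd3 was 9.94 CPM per kb against 33.41 for Kcnd2, and Kcnd1 was 0.811.

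Kcnh1, an ether-à-go-go (EAG) channel, had the lowest mean of the coefficients of variation within the groups (1.30% and 3.54%) among members of at least 10 CPM. It measured 45.1, 44.6, 45.3, 46.2 and 45.6 CPM in vehicle 1, 4, 7, 10 and 13, and 43.1, 40.7, 43.9, 44.8 and 43.03 CPM in Visudyne 3, 6, 9, 12 and 15. Visudyne 12 lay among the vehicle samples and the other 4 lay below them. The log2 fold change was -0.07 (SE 0.04, unadjusted p = 0.0855 and adjusted p = 0.9999 in edgeR's quasi-likelihood test), with an interval of 0.895 to 1.01 in folds. Of the other EAG family members, Kcnh3 (12.45 CPM per kb), Kcnh7 (7.64), Kcnh5 (3.24) and Kcnh2 (2.91) were the more abundant, while Kcnh4, Kcnh6 and Kcnh8 had 0.239 to 0.399 CPM per kb.

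Of the Kv7 family, Kcnq3, a subunit of the M-current, had 17.72 CPM per kb. It measured 231.7 to 277.7 CPM in vehicle (median 262.4) and 231.5 to 285.0 CPM in Visudyne samples (median 260.9), with a fold interval of 0.905 to 1.10. Kcnq5, which also contributes to M-type currents, had 12.76 CPM per kb, and the mainly cardiac and epithelial Kcnq1 had 0.0753.

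The Kv1 family, which sets the threshold and spike shape in axons, was led by Kcna1 (22.21 CPM per kb), Kcna2 (17.68), Kcna4 (13.41) and Kcna6 (11.05). Kcna1 had a fold interval of 0.902 to 1.04 and Kcna2 of 0.934 to 1.11. Kcna3 had 3.98 and Kcna5 0.560 CPM per kb. Kcna5 had the lowest fold change of the pore subunits (log2 -0.22, SE 0.14, edgeR adjusted p = 0.9999), at 1.73 ± 0.111 and 1.48 ± 0.268 CPM. Kcna10 and Kcna7, with at most 4 counts in a sample, were not tested. These genes lie in a pair of clusters (GENCODE M21, GRCm38): Kcna5, Kcna1 and Kcna6 within positions 126532551 to 126740674 of chromosome 6, and Kcna3, Kcna2 and Kcna10 within 107036169 to 107195721 of chromosome 3. Neighbours differed widely in level, as Kcna1 and Kcna5 show. Of the exon length of Kcna6, 39.6% is shared with exons of an antisense gene on the opposite strand, and it is not given whether strand was used in counting.

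The Kv3 subunits, which let interneurons fire rapidly, included Kcnc2 at 12.62, Kcnc4 at 11.52 and Kcnc1 at 11.25 CPM per kb. Kcnc1 had one of the narrowest intervals, 0.960 to 1.08 in folds. Kcnb2, a Kv2 delayed rectifier of the neuronal cell body, had 0.975 CPM per kb and a fold interval of 0.882 to 1.10.

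Silent subunits form no channel alone and modify Kv2 channels. Of 10, 9 were tested, with 6 positive and 3 negative fold changes, a median of 0.03 and intervals within 1.25-fold in 6. Kcnf1 (13.80 CPM per kb) and Kcnv1 (10.80) were the most abundant, followed by Kcns2 (6.49), Kcng2 (5.599), Kcns1 (3.31), Kcng3 (2.62), Kcng1 (2.13), Kcng4 (1.55) and Kcns3 (1.03). The smallest p of the class belonged to Kcns2 (37.3 ± 1.51 and 35.1 ± 2.01 CPM, log2 -0.09, SE 0.05) and Kcng1 (9.15 ± 0.876 and 10.07 ± 0.978 CPM, log2 0.14, SE 0.08), each with an edgeR adjusted p of 0.9999. Kcns3 had the lowest fold change (log2 -0.26, SE 0.24), with 1.21 CPM in Visudyne 12 and 2.90 to 4.32 CPM in the other 9 samples. Kcnv2, with at most 10 counts, was not tested.

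The auxiliary subunits of voltage-gated channels comprised 10 genes, of which 8 were tested, 2 with positive and 6 with negative fold changes, a median of -0.06 and intervals within 1.25-fold in 7. Their summed level was 176.4 ± 7.33 CPM per kb in vehicle and 168.0 ± 8.21 in Visudyne samples (SD, n = 5 each). Visudyne 6 (161.1) and Visudyne 15 (158.1) lay below the vehicle range of 170.3 to 189.1, and the other 3 lay within it. Kcnab2 accounted for 49.9% of the class.

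Kcnab2 measured 539.1, 479.0, 466.7, 479.9 and 496.5 CPM in vehicle 1, 4, 7, 10 and 13, and 492.9, 443.5, 484.2, 469.8 and 444.7 CPM in Visudyne 3, 6, 9, 12 and 15. Visudyne 6 and 15 were again the lowest of all. The fold was 0.949 with an interval of 0.878 to 1.03 (edgeR adjusted p = 0.9999). The other beta subunits, Kcnab1 (12.51 CPM per kb) and Kcnab3 (6.58), had log2 fold changes of -0.05 (SE 0.06) and -0.13 (SE 0.08).

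KChIPs are calcium-binding proteins that bring Kv4 channels to the surface. Kcnip4 had the smallest p of all members after Kcnk5 (unadjusted p = 0.0583, adjusted p = 0.9999, edgeR). It measured 61.4, 59.7, 57.4, 59.3 and 57.7 CPM in vehicle 1, 4, 7, 10 and 13, and 60.0, 49.2, 55.0, 56.3 and 53.1 CPM in Visudyne 3, 6, 9, 12 and 15. Visudyne 3 lay among the vehicle samples, and the other 4 lay below them. The log2 fold change was -0.11 (SE 0.05), a fold interval of 0.855 to 1.003. Kcnip2 (29.08 CPM per kb), Kcnip3 (19.72) and Kcnip1 (2.30) had log2 fold changes of -0.06, -0.03 and 0.01. Of the KCNE proteins, small partners with a single membrane pass, Kcne4 was tested (0.694 ± 0.183 and 0.859 ± 0.145 CPM, log2 0.31, SE 0.22), and Kcne1 and Kcne3, with at most 9 counts in a sample, were not.

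Kcnip4, Kcnd2, Kcnj3, Kcns2, Kcnk1 and Kcnab2, set together here after their values were seen, had log2 fold changes between -0.11 and -0.08. Their lowest values were in Visudyne 6 or Visudyne 15, and none passed the test. The set was not complete. Kcnj4, Kcnv1, Kcnmb4 and Kcnk2 had fold changes in the same range, and each had its lowest value in Visudyne 15. Visudyne 6 and Visudyne 15 also had the lowest sums of 8 neuron markers, 5730 and 5546 CPM, where the other 8 samples had 5840 to 6334 CPM. This was not particular to neurons. Visudyne 15 was also lowest in the sums of astrocyte (3924 CPM), oligodendrocyte (1650 CPM), oligodendrocyte precursor, inhibitory interneuron and CA field markers. It was not lowest in those of microglia, mural cell or endothelium markers. The 8 dentate granule cell markers were all negative (median log2 -0.18), and 4 of them had an unadjusted p under 0.05, where 0.56% of all genes were lower at that p, but 0 were called. Their sums were 450.1 to 537.5 CPM in vehicle and 429.3 to 515.1 CPM in Visudyne samples. The lowest dentate sums were in Visudyne 6 (429.3) and Visudyne 3 (431.9), while Visudyne 15 (463.1) lay above vehicle 4 (450.1 CPM). No neuron or dentate granule cell marker was at 0 in a sample, and the part of the markers in the channel values was not tested. Among genes of at least 10 CPM, 16 of 45 members (35.6%) had positive fold changes, close to the 36.7% of all 9182 genes at that level.

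**Figure D2:**
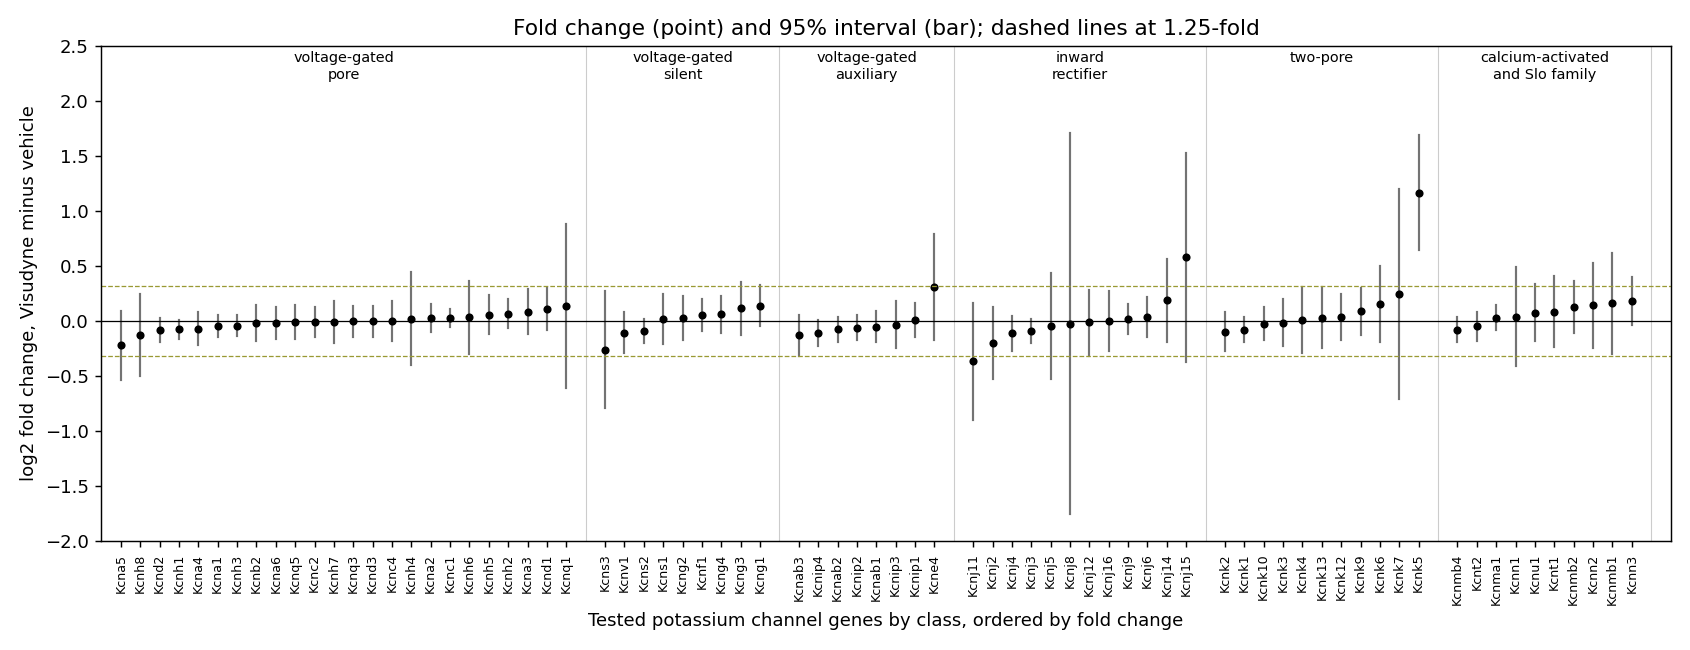
Log2 fold change (Visudyne minus vehicle) of 74 of the 78 tested members with its 95% interval, by class, and dashed lines at 1.25-fold in either direction. Kcnk5, with a log2 fold change of 1.16, is the one member whose interval leaves out 0.

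Inward rectifiers comprised 13 genes, of which 12 were tested, 4 with positive and 8 with negative fold changes, a median of -0.02 and intervals within 1.25-fold in 6. The summed level was 99.96 ± 4.27 CPM per kb in vehicle and 95.1 ± 6.03 in Visudyne samples (SD, n = 5 each), with overlapping ranges. G protein-gated channels, which hyperpolarize neurons on GABA-B or adenosine receptor activation, are mixtures of Kcnj3, Kcnj6 and Kcnj9.

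Kcnj3 measured 160.3, 173.2, 174.9, 181.1 and 162.0 CPM in vehicle 1, 4, 7, 10 and 13, and 166.1, 155.1, 170.0, 160.0 and 147.5 CPM in Visudyne 3, 6, 9, 12 and 15. Visudyne 6, 12 and 15 lay below all vehicle samples, and the other two lay among them. The fold was 0.938 with an interval of 0.868 to 1.01 (edgeR adjusted p = 0.9999). Kcnj9 (15.16 CPM per kb) and Kcnj6 (5.20) had fold intervals of 0.921 to 1.12 and 0.905 to 1.17. Kcnj3 exceeded Kcnj6 per kb by a ratio of 6.40 ± 0.459 in vehicle and 5.88 ± 0.732 in Visudyne samples. With the length of the longest transcript in place of all exons that ratio was 3.04 ± 0.218 and 2.79 ± 0.348. Kcnj5, the mainly cardiac partner, had 0.111 CPM per kb. Of the exon length of Kcnj3, 31.1% lies on the opposite strand of exons of a long noncoding RNA gene, and since it is not given whether strand was used in counting, reads of such pairs may not be told apart.

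Among the classical strong rectifiers, Kcnj4 had 34.95, Kcnj2 3.97, Kcnj12 1.79 and Kcnj14 0.561 CPM per kb. Kcnj4 measured 72.3 to 85.7 CPM in vehicle (median 74.5) and 64.1 to 81.3 CPM in Visudyne samples (median 73.98), with a fold interval of 0.830 to 1.03. Kcnj16, which pairs with Kcnj10 in glia, measured 15.6, 13.6, 14.7, 15.4 and 11.7 CPM in vehicle 1, 4, 7, 10 and 13 and 15.8, 15.4, 10.3, 16.7 and 12.65 CPM in Visudyne 3, 6, 9, 12 and 15, and its fold interval was 0.8255 to 1.206.

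The pores of ATP-sensitive channels, Kcnj11 in neurons and Kcnj8 in pericytes and smooth muscle, had low counts. Kcnj11 measured 1.49, 1.28, 0.914, 0.929 and 0.665 CPM in vehicle 1, 4, 7, 10 and 13, and 1.07, 0.906, 0.827, 0.613 and 0.662 CPM in Visudyne 3, 6, 9, 12 and 15, so that the groups overlapped. Its log2 fold change was -0.37 (SE 0.24, edgeR adjusted p = 0.9999). Kcnj8 had 0 counts in vehicle 10 and Visudyne 9 and 0.333 to 0.908 CPM in the others, and its fold interval was 0.296 to 3.26. Kcnj5, with a similar sum of counts over the 10 samples (302, against 307 for Kcnj8) and none at 0, had an interval of 0.695 to 1.35. Kcnj15, also sparse, had a log2 fold change of 0.58 (SE 0.44), and Kcnj1, with at most 9 counts, was not tested.

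K2P channels comprised 14 genes, of which 11 were tested, 7 with positive and 4 with negative fold changes, a median of 0.03 and intervals within 1.25-fold in 8. Kcnk1, a weakly rectifying leak channel, made up 67.6% of their summed level. It measured 72.4, 69.4, 69.1, 69.9 and 66.8 CPM in vehicle 1, 4, 7, 10 and 13, and 70.2, 59.8, 66.5, 70.2 and 62.6 CPM in Visudyne 3, 6, 9, 12 and 15. Visudyne 6, 9 and 15 lay below all vehicle samples, and the fold interval was 0.876 to 1.02.

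Kcnk5, which encodes an alkaline-activated K2P channel of the TASK and TALK group best known from kidney epithelium, was the member with the largest fold change of the 78 tested. The gene (ENSMUSG00000023243) lies on the minus strand of chromosome 14 from 20140057 to 20181809 (GRCm38). It measured 0.447, 0.425, 0.179, 0.415 and 0.364 CPM in vehicle 1, 4, 7, 10 and 13, and 1.002, 0.795, 0.844, 0.739 and 0.749 CPM in Visudyne 3, 6, 9, 12 and 15. Each Visudyne value exceeded the highest vehicle value, that of vehicle 1, and vehicle 7 was the lowest. The means were 0.366 ± 0.109 and 0.826 ± 0.107 CPM (SD, n = 5 each), a fold of 2.24 with an interval of 1.56 to 3.22. The difference did not pass the test over all genes (log2 1.16, SE 0.24, unadjusted p = 3.87e-04, adjusted p = 0.720, edgeR), and it passed with DESeq2 (adjusted p = 0.0183), while over all alternatives the adjusted p ranged from 0.0183 to 1. Without vehicle 7 the log2 fold change was 0.996. Kcnk5 had 9 to 58 counts per sample, a rank of 74 among the 89 members by CPM per kb.

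The 10 listed markers of meningeal fibroblasts all had positive fold changes (median log2 0.65). Of them 1 was called (Col1a1), where 0.021% of all genes were called higher. In 5 the groups did not overlap, with Visudyne higher, where 0.319% of all genes did so. The sums of the 10 markers were 543.9, 494.2, 282.3, 344.8 and 199.4 CPM in vehicle 1, 4, 7, 10 and 13, and 641.4, 436.8, 342.6, 377.3 and 471.2 CPM in Visudyne 3, 6, 9, 12 and 15. No marker of the list was at 0 in a sample, the lowest being 27 counts of Slc47a1. Ptgds made up 71.4% of these sums (148.7 to 497.5 CPM per sample). The other 9 markers, summed without Ptgds after the values were seen, gave 119.3, 100.6, 87.8, 110.3 and 50.7 CPM in vehicle 1, 4, 7, 10 and 13, and 143.9, 164.9, 132.9, 144.4 and 127.2 CPM in Visudyne 3, 6, 9, 12 and 15. With Ptgds the sums of the groups overlapped. Without it each Visudyne sum exceeded each vehicle sum, where 5 of these 9 markers already separated the groups singly. Among vehicle samples, vehicle 1 was highest in this sum and in Kcnk5. The lowest vehicle sum was in vehicle 13 and the lowest Kcnk5 value in vehicle 7 (0.179 CPM). Among Visudyne samples the highest sum was in Visudyne 6 and the highest Kcnk5 value in Visudyne 3 (1.002 CPM). The 5 markers whose groups did not overlap were Col1a1, Col1a2, Col3a1, Slc47a1 and Mgp. The part of these markers in the Kcnk5 result was not tested.

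Of the other K2P channels, the mechanosensitive TREK channels Kcnk2 (2.90 CPM per kb), Kcnk4 (1.24) and Kcnk10 (1.03) had log2 fold changes of -0.10 (SE 0.08), 0.01 (SE 0.14) and -0.03 (SE 0.07). Kcnk4 shares 13.1% of its exon length with the protein-coding gene Catsperz on the same strand. Its level was 2.18 CPM per kb of its longest transcript. The acid-sensitive channels Kcnk3 and Kcnk9 had 1.74 and 0.763 CPM per kb, and fold intervals of 0.8535 to 1.148 and 0.917 to 1.23. Kcnk13, the resting potassium channel of microglia, measured 5.50 ± 0.922 and 5.62 ± 0.760 CPM (fold interval 0.843 to 1.24), and its relative Kcnk12 had 3.82 CPM per kb. Kcnk6 and Kcnk7 had 0.932 and 0.0998 CPM per kb. Kcnk15, Kcnk16 and Kcnk18, with at most 6 counts in a sample, were not tested, and Kcnk16, the neighbour of Kcnk5 on chromosome 14, had 3 counts in all 10 samples together.

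**Figure D3:**
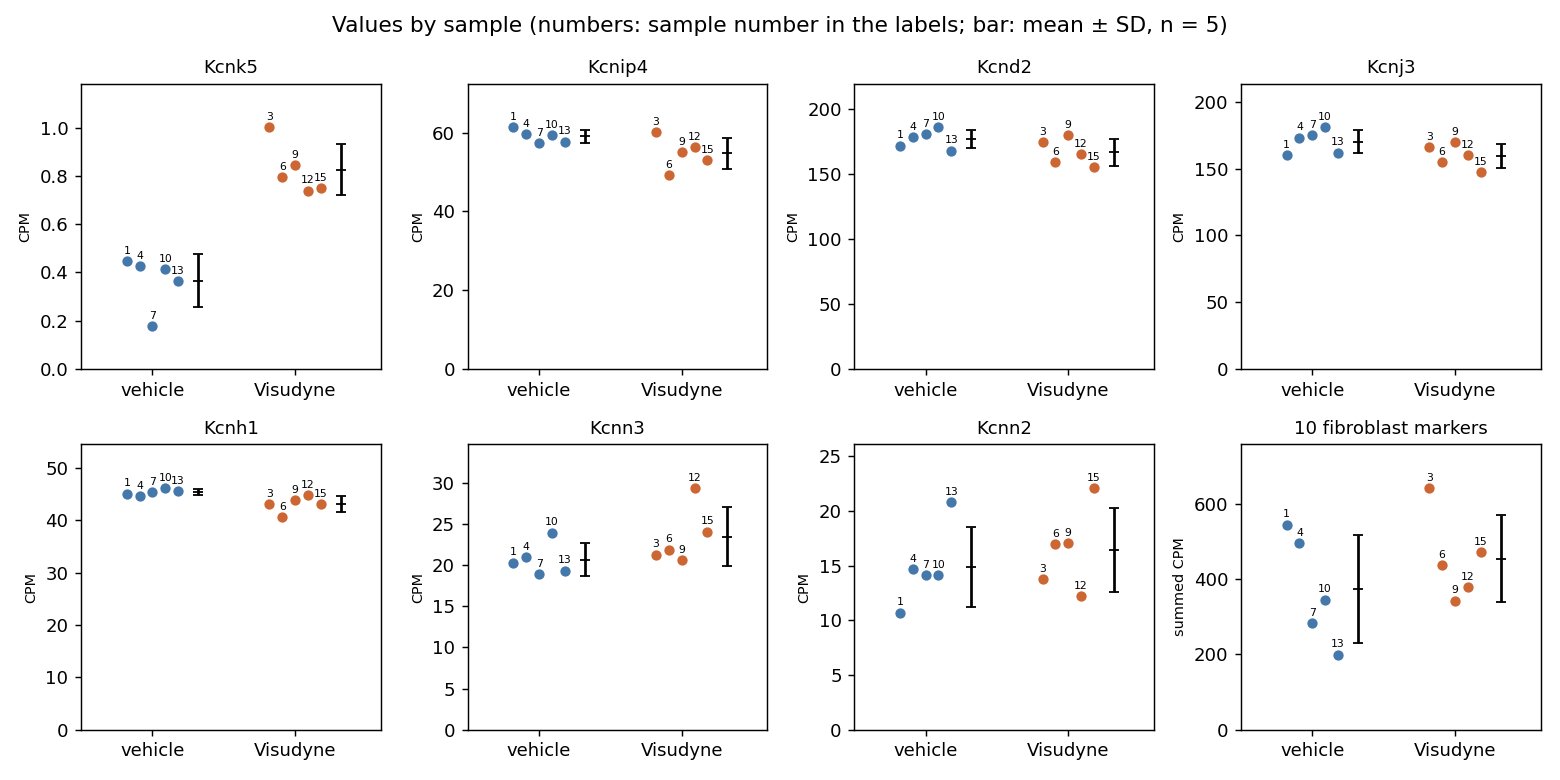
CPM of 7 members and the summed CPM of 10 meningeal fibroblast markers in each sample (numbers are the labels' sample numbers), with mean ± SD of 5 samples beside each group. Kcnk5 separates the groups at 0.447 and 0.739 CPM, while the other 6 members overlap. The sums of the 10 markers overlap too. Sums without Ptgds, taken after the values were seen, are not drawn. They reach at most 119.3 CPM in vehicle and at least 127.2 CPM in Visudyne samples.

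Calcium-activated channels and the related Slo family comprised 12 genes, of which 10 were tested, 8 with positive and 2 with negative fold changes, a median of 0.08 and intervals within 1.25-fold in 3. None had an unadjusted p under 0.05, and the summed level was 32.2 ± 0.790 CPM per kb in vehicle and 32.3 ± 0.572 in Visudyne samples (SD, n = 5 each). Kcnma1, the pore of the large-conductance (BK) channel, measured 75.7 to 91.1 CPM in vehicle and 85.2 to 90.2 CPM in Visudyne samples, with a fold interval of 0.945 to 1.10. Its neuronal beta subunit Kcnmb4 had 9.01 CPM per kb against 5.10 for the pore, and a fold interval of 0.875 to 1.02. Exons of 2 antisense genes cover 20.8% and 10.7% of the exon length of Kcnmb4, and its level was 18.4 CPM per kb of its longest transcript. Kcnmb2 had 1.04 and the smooth muscle subunit Kcnmb1 0.236 CPM per kb, and Kcnmb3, with at most 16 counts, was not tested.

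The small-conductance (SK) channels, which carry the after-hyperpolarization, were led by Kcnn3 (2.11 CPM per kb) and Kcnn2 (2.10), with Kcnn1 at 0.322. Per kb of the longest transcript, Kcnn2 (4.25) lay above Kcnn3 (2.655). Kcnn3 measured 20.3, 20.9, 18.9, 23.96 and 19.3 CPM in vehicle 1, 4, 7, 10 and 13, and 21.3, 21.9, 20.6, 29.4 and 24.1 CPM in Visudyne 3, 6, 9, 12 and 15. The groups overlapped, and Visudyne 12 was the highest (log2 0.18, SE 0.10, edgeR adjusted p = 0.9999). Kcnn2 measured 10.7, 14.7, 14.1, 14.2 and 20.8 CPM in vehicle 1, 4, 7, 10 and 13, and 13.8, 16.99, 17.04, 12.2 and 22.1 CPM in Visudyne 3, 6, 9, 12 and 15. It varied about as much within each group (coefficients of variation of 24.6% and 23.2%) and was highest in vehicle 13 and Visudyne 15. Kcnn4, a channel of blood and immune cells, had at most 10 counts and was not tested. The sodium-activated channels Kcnt2 (9.08 CPM per kb) and Kcnt1 (2.64) had log2 fold changes of -0.05 (SE 0.06) and 0.08 (SE 0.15), and Kcnu1, known from sperm, had 0.525 CPM per kb.

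**Figure D4:**
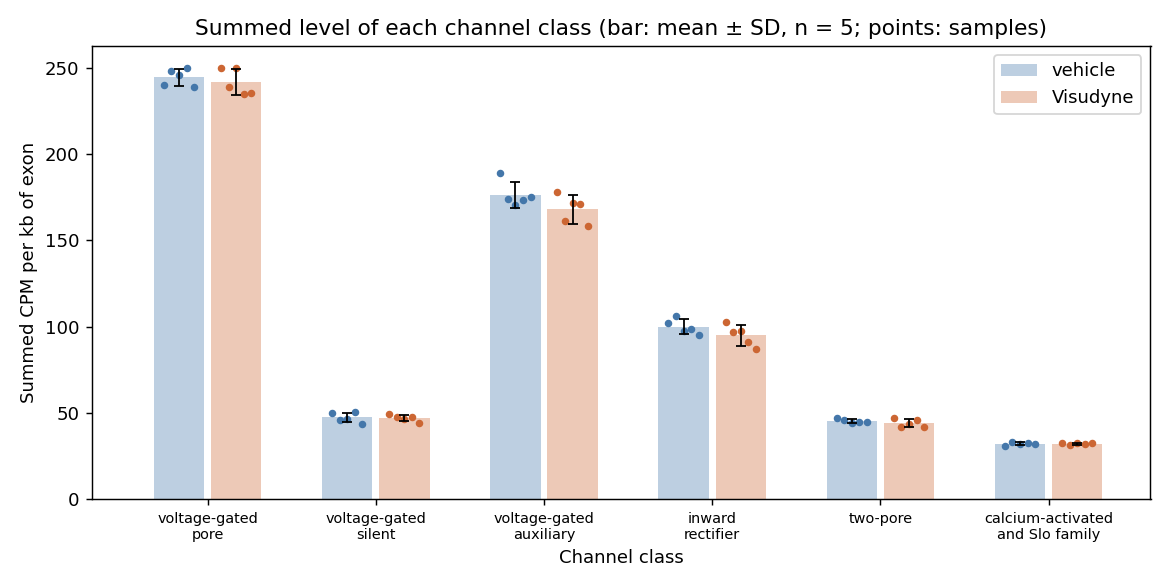
Summed level of each class in CPM per kb of exon for vehicle (blue) and Visudyne (orange) samples, with bars for the mean, error bars for the SD of 5 samples and a point for each sample. Pore subunits are highest (244.6 and 241.9), and the ranges of both groups overlap in all 6 classes.

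The intervals give the size of difference that these samples leave possible. Over all tested members 53 of 78 (67.9%) had a 95% interval within 1.25-fold of no difference, where 55.9% of all tested genes did. Of the 45 members of at least 10 CPM 41 (91.1%) did so, where 93.9% of all genes at that level did. The 4 that did not were Kcnn2, Kcnn3, Kcnt1 and, named after its values were seen, Kcnj2, which measured 23.1 ± 4.19 and 20.1 ± 4.18 CPM. At 1.5-fold the count was 69 of 78 members (88.5%), where 71.3% of all genes did so, and it was 45 of the 45 members of at least 10 CPM, where 98.8% of all genes at that level did so.

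Genes that act with potassium channels were taken from lists of their own, none of whose members was called. Of 4 HCN channels, which carry the opposing hyperpolarization-activated current, 2 were positive and 2 negative, and Hcn3 and Hcn2 had log2 fold changes of 0.10 (SE 0.08) and 0.02 (SE 0.06). Of 34 tested channel partners (35 listed), 11 were positive and 23 negative with a median of -0.02, and the 2 of smallest p were calmodulin Calm2 (log2 -0.10, SE 0.08) and Dpp6 (-0.04, SE 0.04), a membrane partner of Kv4 channels. Of 20 genes of potassium transport, 7 were positive and 13 negative. Positive fold changes were found in 51.1% of all tested genes and in 36.7% of those of at least 10 CPM. Slc12a7, a potassium-chloride cotransporter, had a fold of 1.34 without overlap of the groups (edgeR adjusted p = 0.764). Of all genes 0.319% had no overlap with Visudyne higher. Of 26 voltage-gated sodium and calcium channel genes, 13 were positive and 13 negative, with Scn3b (-0.10, SE 0.05) and Cacna1g (0.09, SE 0.07) of smallest p. All of these genes apart from Slc12a7 had an edgeR adjusted p of 0.9999.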

How the data were processed

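Libraries of hippocampal total RNA came from the TruSeq stranded kit (per the labels' protocols). The values are estimated counts for each Ensembl gene in 10 samples, deposited by the authors without normalization. The submitters' processing notes name FastQC, Salmon and build mm10. Not given in the sources used here are versions, annotation, how transcripts were summed and whether strand was used. These deposited estimated counts are whole numbers, so rounding changed nothing. Symbols, positions and exon lengths came from GENCODE M21 (GRCm38), which matched 28564 of 28871 identifiers. The 307 others held 0.134% of the counts.

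Groups followed the treatment in the labels, with 5 samples each and no batch given. All genes were fitted with edgeR's quasi-likelihood test (edgeR 4.0.16, R 4.3.3; default low-count filter, TMM normalization, no covariate), with Benjamini-Hochberg adjustment over 19093 genes. CPM used TMM-scaled totals. SEs were derived from the F statistics, and 95% intervals from the t distribution with the fit's degrees of freedom. CPM per kb divides by the union of annotated exons. The procedure was tested on simulated data with changes placed only in genes of mean CPM above 1, whereas Kcnk5 had a mean of 0.596 CPM. Members and lists were chosen with earlier results of these data known. Named genes were, per class, the 3 of smallest p and the 3 of highest level per kb, every member without overlap of the groups and 16 examples of known function. The other members are given by family with their level, and the values of 4 tested members and 1 listed gene are not reported here, though counts and sums include them. Alternatives were other normalizations and filters, DESeq2 1.42.0, voom in limma 3.58.1 with or without quality weights, removal of mitochondrial genes, a minimum fold of 1.2, the sample number as covariate and leaving out each sample.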

Additional observations from a re-analysis of the deposited data

How the results depend on the processing

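No member was called in any of the 20 alternatives except Kcnk5 with DESeq2, where 1 member was higher; its log2 fold change was 0.996 to 1.40 in the 19 alternatives that tested it. Over all genes, the count of higher genes was 4, and it was 2 with upper-quartile normalization, 2 without mitochondrial genes, 18 with DESeq2, 13 with voom and sample quality weights, 0 when a fold change above 1.2 was required and 19 with the sample number as covariate. Leaving out each sample gave 0 to 4 higher genes (0 without Visudyne 3, Visudyne 6 or vehicle 7, and 1 without Visudyne 9, Visudyne 12, Visudyne 15, vehicle 10 or vehicle 13) and 0 to 1 lower genes (1 without vehicle 1). The cause was not tested. Of 37 named members 26 kept the sign of their fold change in all alternatives, and 11 did not. Of 737 recomputed fold changes 1 moved by more than its SE, that of Kcnj8, at -1.32 with voom and sample quality weights. Of 114 recomputed class medians 0 moved by more than the spread between samples. No paired analysis was possible because the groups share no sample number. The low-count filter left 11 members untested.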

Other observations

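ATP-sensitive channels need a sulfonylurea receptor beside each pore, Abcc8 in neurons and Abcc9 in mural cells. Per kb of exon, Kcnj11 stood at 0.118 ± 0.0433 of the level of Abcc8 in vehicle and 0.0890 ± 0.0176 in Visudyne samples (SD, n = 5 each). Kcnj8 stood at 0.244 ± 0.165 of the level of Abcc9 in vehicle and 0.249 ± 0.158 in Visudyne samples. These means include vehicle 10 and Visudyne 9, where Kcnj8 was at 0, and the other samples had ratios of 0.163 to 0.400. The receptor genes had folds of 0.993 (95% interval 0.873 to 1.13) for Abcc8 and 0.995 (0.863 to 1.147) for Abcc9, and in each pair the pore was the scarcer transcript in all 10 samples.

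Kcna1 to Kcna2 per kb was 1.29 ± 0.0742 in vehicle and 1.23 ± 0.0460 in Visudyne samples (SD, n = 5 each). Kcnn2 to Kcnn3 ranged from 0.581 in Visudyne 12 to 1.51 in vehicle 13, and from 0.938 to 2.43 with the length of the longest transcript.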
